A study of Mus musculus with 26 samples.

Results

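Zfp36, Zfp36l1, Zfp36l2, Zc3h12a, Rc3h1 and Rc3h2 encode RNA-binding proteins that shorten the life of cytokine messenger RNAs. The 6 genes were chosen by name, matched to the Ensembl identifiers of the count files, and are 6 of the 54146 genes listed there. All 6 had enough reads to be among the 12986 genes tested. They were followed in mouse acute myeloid leukemia cultures made by transducing lineage-negative bone marrow with the fusion oncogene MLL-AF9 (MA9). The control arm, MA9+EV, also received the empty MSCVpuro vector, and the other arm, MA9+SETDB1, received SETDB1, a methyltransferase that places a repressive mark on histone H3. All cells of both arms therefore carry MLL-AF9, were selected in puromycin for about 3 to 6 weeks and grew with IL-3 and SCF, over 8 to 12 weeks of culture in all. Polyadenylated RNA was sequenced from 3 libraries of each arm, which the series design calls biological replicates. No label says whether the replicates came from separate transductions or animals, so the p-values measure only the spread between these libraries, part of which may be technical. The series concerns repression by SETDB1, and the comparison asks how each gene's RNA differed between the arms.

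The decay factors fall into 3 kinds. The ZFP36 proteins (tristetraprolin, encoded by Zfp36, and its relatives) bind AU-rich elements in the 3′ untranslated regions of cytokine and growth-control mRNAs and bring in the CCR4-NOT deadenylase complex. Regnase-1, encoded by Zc3h12a, is an endonuclease that cuts stem-loops in messages such as Il6, while Roquin-1 (Rc3h1) and Roquin-2 (Rc3h2) bind similar stem-loops and recruit deadenylation and decapping enzymes. Many of these messages, and Zfp36 itself, belong to the early response that follows cytokine or growth-factor signals, and the decay factors end that response; in myeloid cells they limit inflammatory cytokine output.

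Between 18070482 and 22561757 reads per library were assigned to genes. The check of the introduced gene held: Setdb1 stood at 105, 108 and 109 CPM (counts scaled to a common library size with TMM factors) in MA9+EV replicates 1, 2 and 3 and at 475, 605 and 607 CPM in the same order in MA9+SETDB1. Replicate 1 stood apart from replicates 2 and 3 in both arms, with a mean chi-square per gene of 80.6 to 113 for pairs with replicate 1, against 4.5 and 3.26 for replicates 2 and 3 of MA9+EV and MA9+SETDB1. A value of 1 is what sampling alone gives, so replicates 2 and 3 differed by more than sampling. That does not show that they are separate cultures, since repeat preparations of 1 culture could also differ by more than sampling. All 6 libraries were kept as separate samples, and a fit with replicates 2 and 3 added together within each arm was also run. Lineage markers also differed between the arms. Mast cell and basophil markers summed to 162.3 to 202.5 CPM in MA9+EV and 11090 to 11620 CPM in MA9+SETDB1, with 9 of 10 tested genes higher and 1 lower. The lower gene was Kit, with 118, 112 and 113 CPM in MA9+EV and 2.46, 0.183 and 0.571 CPM in MA9+SETDB1. Mcpt4 was at 0 in both arms and Tpsb2 at 0 in MA9+EV. Erythroid markers summed to 928.3 to 955.4 and 2805 to 2958 CPM (10 of 11 higher, Alas2 and Slc4a1 at 0 in MA9+EV). Nearly all of the MA9+EV erythroid sum was Tfrc, the 1 gene not called. It had 928, 954 and 930 CPM in MA9+EV and 1251, 1038 and 1053 CPM in MA9+SETDB1. Kit and Tfrc were named after their values were seen. Neutrophil granule markers summed to 13720 to 16140 and 58.27 to 136.5 CPM (9 of 10 lower), and monocyte and macrophage markers to 2461 to 4235 and 746.6 to 1653 CPM (2 of 9 higher, 7 lower). The T and NK cell list summed to 24.28 to 30.76 and 25.23 to 50.38 CPM (2 of 8 genes tested, Nkg7 higher and Lck lower), with Cd3e, Cd4, Cd8a and Ncr1 at 0 in all 6 libraries and Cd3g at 0 in MA9+EV and 0.224 to 2.98 CPM in MA9+SETDB1. The B cell list summed to 0.9127 to 4.006 and 2.435 to 3.356 CPM (1 of 5 genes tested, Cd79b, not called), with Ms4a1 and Pax5 at 0 in all libraries. The stromal list summed to 1.079 to 1.561 and 35.84 to 83.01 CPM (2 of 5 genes tested, Pdgfrb higher and Lepr lower). Apart from the T and NK cell and B cell lists, whose sums overlapped, these cell-type markers moved with every change described here. Their part in the results was not tested. In bulk RNA, more cells of a type and more RNA per cell cannot be told apart.

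Among the 6 genes, those of the ZFP36 family were called and those of the endonuclease and the Roquins were not. Zfp36, Zfp36l1 and Zfp36l2 were called higher in MA9+SETDB1 by edgeR's quasi-likelihood test, none was called lower, and Zc3h12a, Rc3h1 and Rc3h2 were not called. At an unadjusted p under 0.05 the count was again 3 higher and 0 lower, as it was by DESeq2. Over all tested genes 27.4% were called higher and 26.2% lower, and 53.5% either way, so a call is common in this comparison, and 3 of 6 called lies near the share called either way. The Zfp36l1 call was lost without MA9+SETDB1 replicate 2 (edgeR adjusted p = 0.0561) and with replicates 2 and 3 added together within an arm (edgeR adjusted p = 0.0784). The groups did not overlap, with MA9+SETDB1 higher, for the same 3 genes, against 32.1% of all tested genes with MA9+SETDB1 higher, 32.5% with it lower and 64.6% either way. The median log2 fold change of the 6 genes was 0.55, beside -0.01 for all tested genes. Scaling by library size alone moved the median of all genes by -0.23 on the log2 scale and changed the split of calls from 3554 higher and 3397 lower (51.1% higher) to 2825 and 4585 (38.1% higher). Under that scaling the 3 ZFP36 family genes were still called higher.

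**Figure D1:**
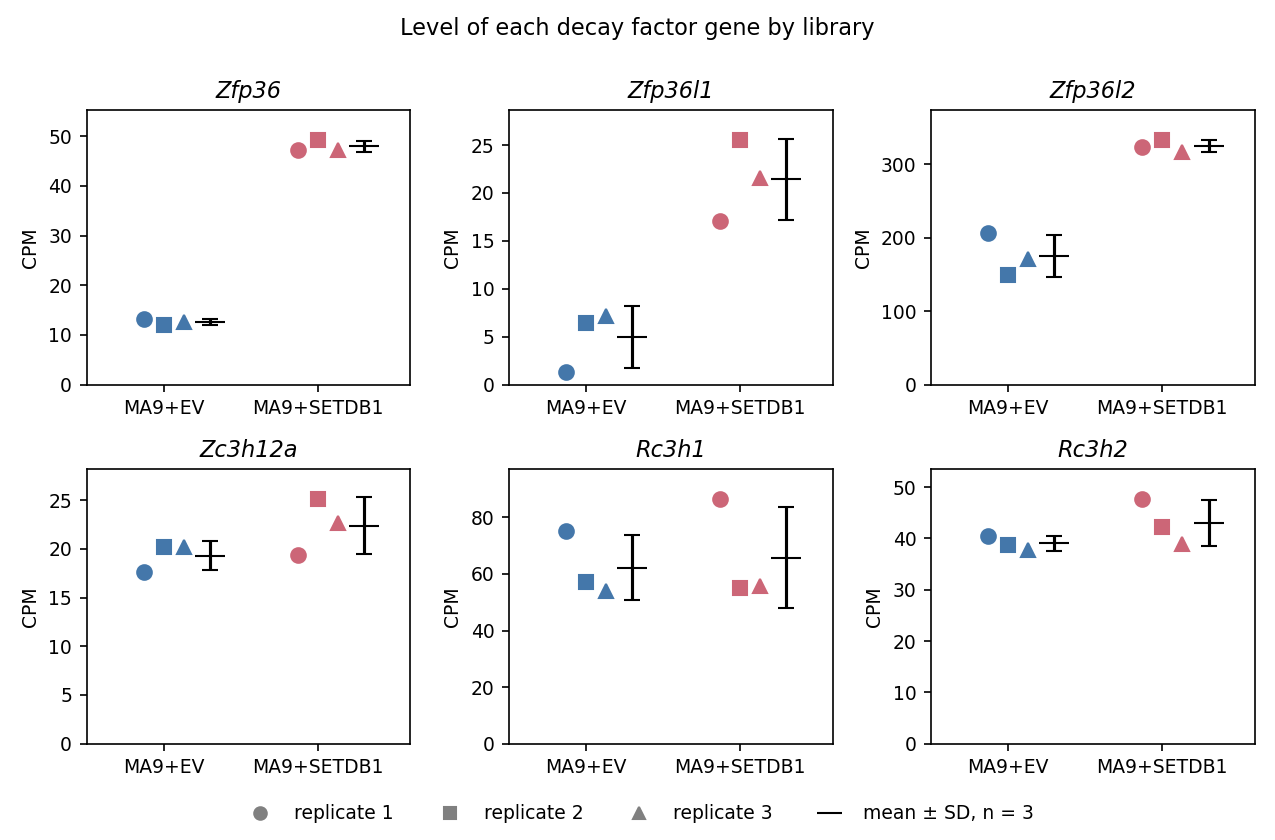
Level of each decay factor gene in CPM (linear axis from 0, a different range in each panel) in the 3 MA9+EV and 3 MA9+SETDB1 libraries, with symbols for the replicate number and the mean ± SD beside the points. The upper panels show the ZFP36 family, whose arms do not overlap, and the lower panels Zc3h12a, Rc3h1 and Rc3h2, whose arms do.

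Zfp36 (ENSMUSG00000044786.6, GRCm38 chromosome 7, 28376784 to 28379228) and Zfp36l1 (ENSMUSG00000021127.7, chromosome 12, 80107760 to 80113013) had the steepest rises of the 6. The 250 bases before their start sites are shown because these are the stretches through which early response genes are classically induced. They come from RefSeq on GRCm38.p6, at chr7:28379229-28379478 and chr12:80113014-80113263, both on the minus strand, and are written 5′ to 3′ along the gene with motif matches in capitals.
Zfp36: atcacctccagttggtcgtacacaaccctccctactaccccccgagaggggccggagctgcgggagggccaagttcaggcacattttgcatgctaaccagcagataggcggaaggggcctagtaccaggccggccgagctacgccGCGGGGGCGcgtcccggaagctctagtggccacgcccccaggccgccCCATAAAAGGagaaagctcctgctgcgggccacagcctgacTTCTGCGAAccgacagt
Zfp36l1: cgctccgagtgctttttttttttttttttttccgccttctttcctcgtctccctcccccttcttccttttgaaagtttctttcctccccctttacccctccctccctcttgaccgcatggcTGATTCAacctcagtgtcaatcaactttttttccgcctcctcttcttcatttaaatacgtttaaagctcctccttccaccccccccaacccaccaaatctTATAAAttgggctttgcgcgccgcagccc
In the Zfp36 window the capitals mark, from left to right, an EGR site (GCGGGGGCG, 105 to 97 bases before the start), a CArG box of the serum response element (58 to 49 bases before) and the core of an interferon-gamma activated site (TTCNNNGAA, here TTCTGCGAA, 17 to 9 bases before). In the Zfp36l1 window they mark an AP-1 site (TGANTCA, here TGATTCA, 129 to 123 bases before) and a TATA box (TATAAA, 29 to 24 bases before).

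The motifs were chosen after the sequences were seen, both strands were searched, and none of the matches shown overlapped another. Among the 32851 RefSeq windows of the same length, 2.57% held the EGR site, 1.47% a CArG box, 7.02% the interferon-gamma activated core, 6.75% the AP-1 site and 12.4% the TATA box. Of the other windows on hand, Rc3h1 held 1 AP-1 match (TGACTCA, 133 to 127 bases before its start), and Zc3h12a and Rc3h2 held no match to these motifs, to the cAMP response element (TGACGTCA, 1.55% of windows) or to NGATAA (22.5%). The Rc3h2 window (chr2:37422904-37423153, minus strand) lies inside the gene span given below, not before its outer end at 37424370. A promoter window was found for 5 of the 6 genes, Zfp36l2 being named only. These matches describe letters in the windows, and no binding was measured here.

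Zfp36, the founding member of its family, varied little within either arm. In MA9+EV, replicates 1, 2 and 3 held 13.1, 12.0 and 12.6 CPM, and in MA9+SETDB1 they held 47.3, 49.3 and 47.3 CPM, from 858 and 2565 reads in all. Every MA9+SETDB1 library stood above every MA9+EV library, and replicate 1, although apart over the transcriptome, lay with the others. Means were 12.6 ± 0.573 and 47.9 ± 1.2 CPM (SD, n = 3), a log2 rise of 1.93 (SE 0.11, edgeR adjusted p = 2.5e-05), or 3.81-fold with a 95% interval of 3.18 to 4.56. The call held in every alternative run.

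Zfp36l1 encodes a relative known for roles in B cell and myeloid development and, like tristetraprolin, for binding AU-rich elements. In MA9+EV, replicates 1, 2 and 3 held 1.28, 6.47 and 7.15 CPM, and in MA9+SETDB1 they held 17.1, 25.6 and 21.6 CPM. Replicate 1 was the lowest library in each arm, far below the other 2 in MA9+EV, where it held 31 reads against 156 and 142. Means were 4.97 ± 3.21 and 21.4 ± 4.23 CPM (SD, n = 3), and the groups did not overlap.

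The log2 rise of Zfp36l1 was 2.11 (SE 0.58, edgeR adjusted p = 0.019), or 4.32-fold with a 95% interval from 1.67 to 11.2. The size of the rise leaned on MA9+EV replicate 1: without it the log2 fold change was 1.65 (edgeR adjusted p = 0.00239). The call was lost without MA9+SETDB1 replicate 2 (1.97, edgeR adjusted p = 0.0561) and when each arm had its replicates 2 and 3 added up to 1 sample (2.3, edgeR adjusted p = 0.0784). Its fitted rise was close to that of Zfp36, but its interval was wide enough to hold both a smaller and a much larger change.

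Zfp36l2 (ENSMUSG00000045817.8, chromosome 17, 84183924 to 84187947), known for its need in blood stem cell maintenance, gave the most reads of the family. In MA9+EV, replicates 1, 2 and 3 held 206, 149.9 and 171 CPM, and in MA9+SETDB1 they held 324, 334 and 317 CPM. The MA9+SETDB1 libraries were close together and all above the highest MA9+EV library, replicate 1. Means were 176 ± 28.3 and 325 ± 8.44 CPM (SD, n = 3), a log2 rise of 0.89 (SE 0.14, edgeR adjusted p = 0.00169), or 1.85-fold (95% interval 1.48 to 2.32). The interval of Zfp36l2 ended below that of Zfp36, which began at 3.18-fold.

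The unequal rises changed the make-up of the family's reads. Zfp36 gave 5.96%, 7.12% and 6.63% of the reads of the 3 genes in MA9+EV replicates 1, 2 and 3 and 12.2%, 12.1% and 12.2% in MA9+SETDB1 replicates 1, 2 and 3, a difference of 5.59 percentage points. Zfp36l1 gave 0.581%, 3.84% and 3.75% in MA9+EV and 4.40%, 6.26% and 5.59% in MA9+SETDB1. The share of Zfp36l2 was 93.5%, 89.0% and 89.6% in MA9+EV and 83.4%, 81.7% and 82.2% in MA9+SETDB1, -8.28 percentage points apart, so the most-read gene had the smaller share in all 3 MA9+SETDB1 libraries. None of these shares overlapped between the arms, and each reached the smallest p that 3 against 3 libraries allow (two-sided exact permutation p = 0.1). These are shares of reads, which also depend on transcript length, and exon lengths were not used here.

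**Figure D2:**
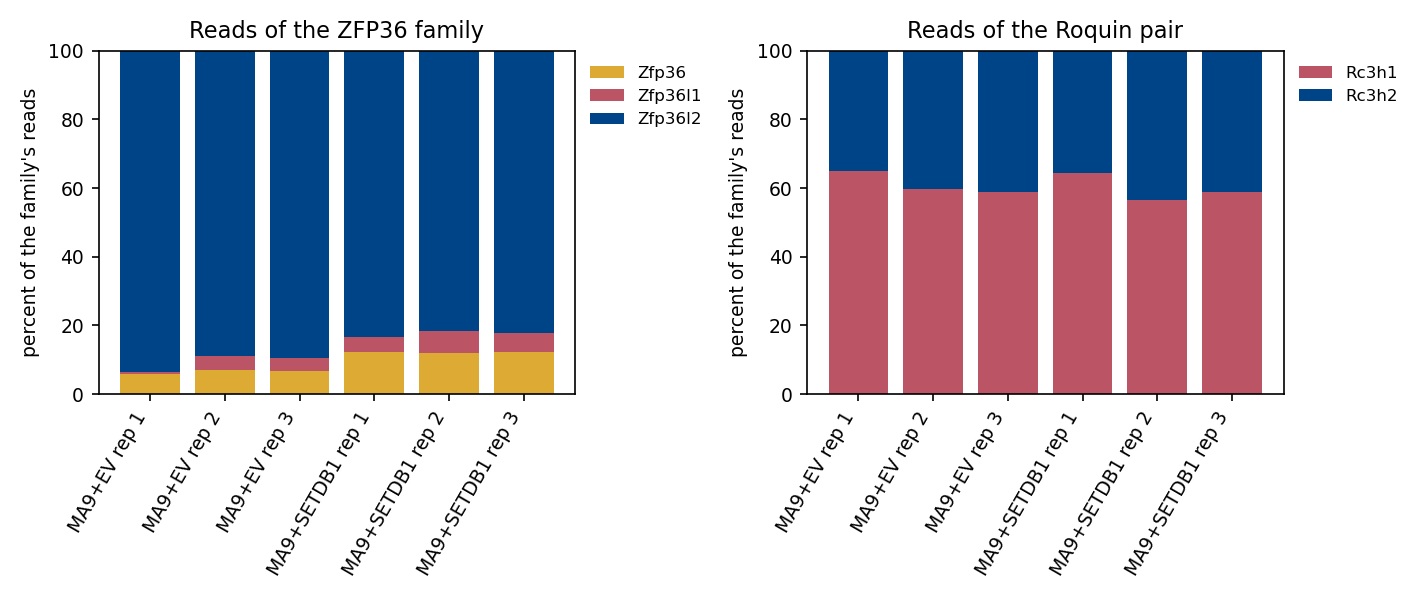
Percent of each family's reads that came from each gene, 1 bar per library on an axis from 0 to 100, with the ZFP36 family on the left and the Roquin pair on the right. The Zfp36 band goes from 5.96% to 7.12% in MA9+EV up to 12.1% to 12.2% in MA9+SETDB1, while the Rc3h1 band keeps to 56.6% to 65.0% in both arms.

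Zc3h12a (ENSMUSG00000042677.7, chromosome 4, 125118414 to 125127881) had 17.6, 20.2 and 20.2 CPM in MA9+EV replicates 1, 2 and 3 and 19.4, 25.1 and 22.6 CPM in MA9+SETDB1 replicates 1, 2 and 3. Replicate 1 was again the lowest library of each arm, and MA9+SETDB1 replicate 1 lay within the MA9+EV range. The means of 19.3 ± 1.49 and 22.4 ± 2.90 CPM (SD, n = 3) gave a log2 difference of 0.21 (SE 0.15, edgeR adjusted p = 0.278), with a 95% interval for the fold from 0.901 to 1.49, which leaves out a rise of the size seen for Zfp36. When replicate 1 of both groups was left out, an alternative added after the data were seen, the difference was 0.26 and was called (edgeR adjusted p = 0.016). With scaling by library size alone it was -0.02, and not called.

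The 2 Roquin genes overlapped between the arms as well. Rc3h1 (ENSMUSG00000040423.10, chromosome 1, 160906411 to 160974976) stood at 75.4, 57.2 and 54.0 CPM in MA9+EV replicates 1, 2 and 3 and at 86.6, 55.2 and 55.6 CPM in MA9+SETDB1 replicates 1, 2 and 3. Replicate 1 was the highest library of each arm, and the other 4 lay within a few CPM of each other. Means were 62.2 ± 11.5 and 65.8 ± 18.0 CPM (SD, n = 3), with a log2 difference of 0.08 (SE 0.22, edgeR adjusted p = 0.776) and a 95% interval of the fold from 0.736 to 1.52. The sign turned to -0.02 without MA9+EV replicate 3, to -0.16 without MA9+SETDB1 replicate 1 and to -0.13 with scaling by library size alone, none of them called.

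Rc3h2 (ENSMUSG00000075376.10, chromosome 2, 37368861 to 37424370), the paralog with overlapping functions, stood at 40.6, 38.7 and 37.8 CPM in MA9+EV replicates 1, 2 and 3 and at 47.7, 42.2 and 38.8 CPM in the same order in MA9+SETDB1. The lowest MA9+SETDB1 library fell inside the MA9+EV range. Means were 39.0 ± 1.39 and 42.9 ± 4.47 CPM (SD, n = 3), with a log2 difference of 0.14 (SE 0.12, edgeR adjusted p = 0.349, 95% interval of the fold 0.909 to 1.33), which was -0.08 with scaling by library size alone. Snord90, a small nucleolar RNA inside Rc3h2, is the 1 annotated gene that overlaps any of the 6, and it had no reads in any library. Rc3h1 gave 65.0%, 59.6% and 58.8% of the pair's reads in MA9+EV and 64.5%, 56.6% and 58.9% in MA9+SETDB1, which overlap (difference -1.16 percentage points, two-sided exact permutation p = 0.6). Without MA9+EV replicate 1 this difference was 0.772 and without MA9+SETDB1 replicate 2 it was 0.518.

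Summed over each family, the balance between the AU-rich element binders and the Roquins moved in all 3 libraries. The ZFP36 genes together had 220.4, 168.3 and 190.8 CPM in MA9+EV and 388.7, 408.7 and 385.8 CPM in MA9+SETDB1, a ratio of means of 2.04, and the Roquin genes 115.9, 95.8 and 91.8 CPM against 134.3, 97.5 and 94.5 CPM, a ratio of 1.07. The log2 ratio of ZFP36 to Roquin reads was 0.93, 0.81 and 1.06 in MA9+EV replicates 1, 2 and 3 and 1.53, 2.07 and 2.03 in MA9+SETDB1 replicates 1, 2 and 3. Arms did not overlap, and MA9+SETDB1 replicate 1 was the nearest to the controls. The difference of 0.94 reached the smallest p the design allows (two-sided exact permutation p = 0.1).

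**Figure D3:**
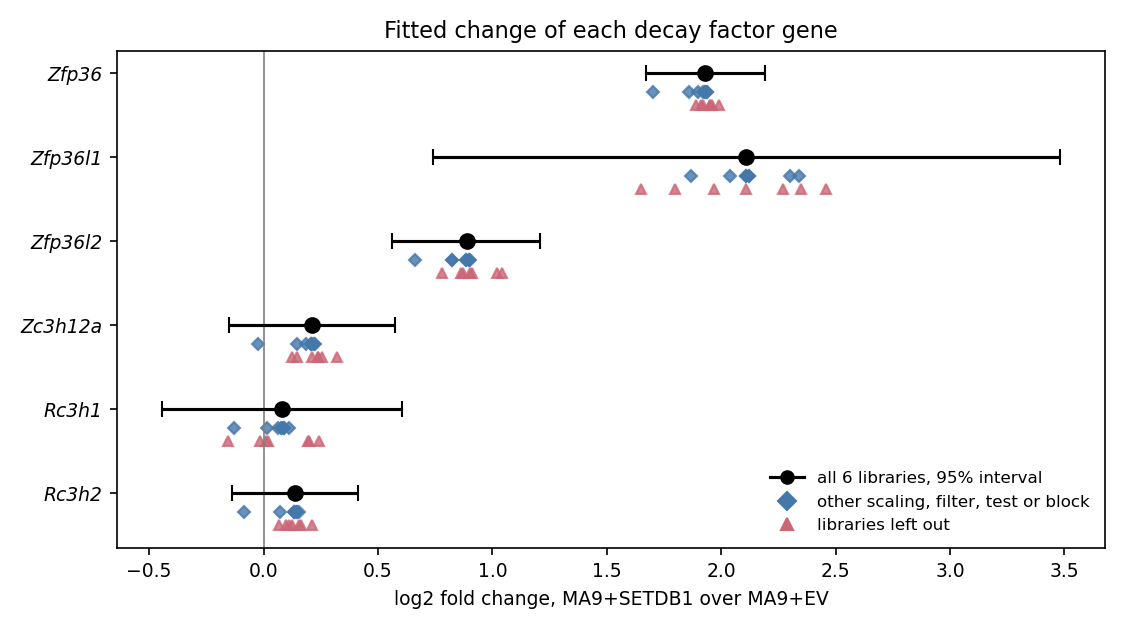
Fitted log2 fold change of each decay factor gene, MA9+SETDB1 over MA9+EV, with its 95% interval (black), beside the values under other scalings, filters, tests or the replicate block (blue) and with libraries left out (red). The ZFP36 family lies right of 0 in every setting shown, and Zc3h12a, Rc3h1 and Rc3h2 have intervals that span 0.

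For each decay factor gene, 8805 tested genes were ranked by likeness, those averaging at least 10 CPM and not named as gene predictions. The measure was the root mean square difference of log2(CPM + 0.5), centred on each gene's mean over the 6 libraries, where a smaller value is more alike. Zfp36 was most like Esyt2 (0.0739, means 72.1 and 253 CPM in MA9+EV and MA9+SETDB1), a tether between endoplasmic reticulum and plasma membrane, and Ptgir (0.0779, 19 and 66.4 CPM), the prostacyclin receptor. Zfp36l1 was most like Fosl2 (0.12, 21.9 and 80.8 CPM), an AP-1 subunit, and Mt2 (0.139, 117 and 474 CPM), a metallothionein. Zfp36l2 was most like Bin2 (0.0496, 134 and 259 CPM), a membrane-curving protein of blood cells, and Ep300 (0.0746, 133 and 240 CPM), a histone acetyltransferase. The genes that did not pass the test had close neighbours of similar flat course, Lrsam1 and Spred2 for Zc3h12a, Spns1 for Rc3h1, and Sptlc2 and Wiz for Rc3h2, at differences from 0.0253 to 0.0349.

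Early response genes, the class to which Zfp36 belongs, were mostly higher as well. Of 14 immediate early genes 13 were tested, of which 10 were called higher and 0 lower by edgeR (10 and 0 at an unadjusted p under 0.05, 11 and 0 by DESeq2), with a median log2 fold change of 2.15. Over all tested genes edgeR called 27.4% higher and 26.2% lower. Of the 10 calls, 9 held in every alternative. The call of Fos, named after its values were seen, was lost in 6 of 15 (edgeR adjusted p = 0.0445 in the main fit). The summed level of the immediate early list was 126.4 to 163.5 CPM in MA9+EV and 957.7 to 1195 CPM in MA9+SETDB1. Most of each MA9+SETDB1 sum was Egr1. Junb, an AP-1 subunit, had 29.4, 31.8 and 35.2 CPM in MA9+EV and 122, 155 and 151 CPM in MA9+SETDB1, a log2 rise of 2.15 (SE 0.13, edgeR adjusted p = 3.69e-05). Egr1, a zinc-finger factor that binds the EGR site, had 3.14, 0.913 and 0.907 CPM in MA9+EV and 525, 769 and 706 CPM in MA9+SETDB1 (log2 fold change 8.63, edgeR adjusted p = 4.47e-05). Egr2 and Egr3 rose by 3.72 and 5.04 on the log2 scale, from 22 and 4 reads over all MA9+EV libraries. The genes not called were Jun, Atf3 and Nr4a2, named after their values were seen, at 0.00, -0.07 and -0.50. The part of this response in the rise of Zfp36 was not tested.

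The list for the signalling arm that acts on ZFP36 proteins holds kinase and phosphatase genes, and 4 of its 8 were called lower. The p38 kinase and its partner MK2 are known to phosphorylate tristetraprolin, which stabilises the protein but holds back its activity, and the phosphatase Dusp1 turns p38 off. Mapk14, encoding p38 alpha, had 313, 310 and 308 CPM in MA9+EV and 209, 163 and 161 CPM in MA9+SETDB1 (log2 change -0.81, SE 0.13, edgeR adjusted p = 0.00208). Mapkapk2, encoding MK2, had 430, 389 and 380 CPM in MA9+EV and 207, 212 and 207 CPM in MA9+SETDB1 (-0.94, SE 0.10, edgeR adjusted p = 0.000356).

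Neither kinase gene overlapped between the arms, both lying lower with SETDB1. The p38 activator Map2k6 fell by 1.24 on the log2 scale (edgeR adjusted p = 0.00393). Dusp1 was the 1 gene of the arm called higher, from 1.82, 4.73 and 5.79 CPM to 29.9, 18.2 and 18.9 CPM (log2 change 2.44 with SE 0.45, edgeR adjusted p = 0.00352). Dusp1 is also among the immediate early genes counted above. Ppp2cb, a phosphatase gene named after its values were seen, was also called lower (-0.75, edgeR adjusted p = 0.00879). Over the 8 genes 1 was called higher and 4 lower, with a median of -0.48, and all 5 calls held in every alternative. The shares over all tested genes were 27.4% higher and 26.2% lower. Mapkapk3, named after its values were seen, had 482, 389 and 379 CPM in MA9+EV and 475, 564 and 575 CPM in MA9+SETDB1. It was not called (log2 change 0.37, edgeR adjusted p = 0.0684). Without MA9+EV replicate 1 (edgeR adjusted p = 0.0195) or MA9+SETDB1 replicate 1 (edgeR adjusted p = 0.029), 2 genes were called higher, Dusp1 and Mapkapk3.

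The machinery that the decay factors recruit was called in both directions, as were all tested genes (27.4% higher, 26.2% lower, 53.5% either way). Of 13 deadenylase genes of CCR4-NOT, PAN2-PAN3 and PARN, 2 were called higher and 4 lower, with a median log2 fold change of -0.20. Cnot9, whose protein is a docking subunit of CCR4-NOT, had 171, 165 and 164 CPM in MA9+EV and 102, 88.4 and 84.4 CPM in MA9+SETDB1 (-0.87, SE 0.10, edgeR adjusted p = 0.000581), and it alone of the 6 was called in every alternative. Cnot1, the scaffold that ZFP36 proteins contact, was named after its values were seen and was at 364 ± 38.7 and 326 ± 53.9 CPM (SD, n = 3), not called (edgeR adjusted p = 0.417). Without MA9+EV replicate 2, MA9+EV replicate 3, MA9+SETDB1 replicate 2 or MA9+SETDB1 replicate 3, 1 deadenylase gene was called lower and 0 or 1 higher. Without MA9+SETDB1 replicate 1, 1 was called higher.

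TOB and BTG proteins link deadenylases to messages. Btg1 had 12.5, 22.1 and 23 CPM in MA9+EV and 76.2, 124 and 127 CPM in MA9+SETDB1 (log2 change 2.51, SE 0.30, edgeR adjusted p = 0.000586), and Btg2 rose by 1.65 (edgeR adjusted p = 0.00865). Both genes are known as brakes on cell growth, and neither overlapped between the arms. Btg2 is also among the immediate early genes counted above. Tob2 was called lower (-0.71, edgeR adjusted p = 0.0157), a call lost without MA9+EV replicate 2 or 3 or MA9+SETDB1 replicate 2 or 3 (edgeR adjusted p from 0.0506 to 0.0596), and Tob1 was not called (0.68, edgeR adjusted p = 0.141). Of the 5 genes 4 were tested, with 2 higher and 1 lower and a median of 1.17. The shares over all tested genes were 27.4% higher and 26.2% lower.

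Decapping and exosome genes were called in both directions. Of 16 genes of decapping and 5′ decay, 1 was called higher and 4 lower (median -0.15). Of 13 tested exosome genes 2 were higher and 6 lower (median -0.22), beside 27.4% higher and 26.2% lower over all tested genes. Lsm3, of the ring that binds deadenylated tails, fell by 0.84 in log2 units (SE 0.10, edgeR adjusted p = 0.000598), and Exosc2 and Exosc1, of the exosome cap, by 0.63 and 0.58. Skiv2l, the helicase that feeds the cytoplasmic exosome, rose from 90.6, 78.4 and 73.2 CPM to 160, 140 and 140 CPM (0.86, SE 0.12, edgeR adjusted p = 0.00109). Among the decapping genes 0 were called higher without MA9+EV replicate 1 or 3 or MA9+SETDB1 replicate 2 or 3, and 2 lower without MA9+SETDB1 replicate 2. Without MA9+SETDB1 replicate 1, 4 exosome genes were called higher. When each arm had its replicates 2 and 3 added up to 1 sample, 1 decapping and 0 exosome genes were called lower, and Lsm3 and Skiv2l were still called.

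Other proteins that bind the same untranslated regions gave 2 higher and 1 lower of 9 tested (median -0.15), and 3 lower with the replicate block. All tested genes gave 27.4% higher and 26.2% lower in the main fit. Arid5a, whose protein is known to shield Il6 mRNA from Regnase-1, had 17.6, 43.7 and 40.5 CPM in MA9+EV and 52.4, 83.3 and 80.9 CPM in MA9+SETDB1. The rise of 1.09 was called (SE 0.36, edgeR adjusted p = 0.0381), and the call was lost without MA9+EV replicate 3 (edgeR adjusted p = 0.0627), MA9+SETDB1 replicate 2 (edgeR adjusted p = 0.105) or MA9+SETDB1 replicate 3 (edgeR adjusted p = 0.102). Elavl1, encoding HuR, which stabilises AU-rich messages, was not called (0.30, edgeR adjusted p = 0.0527), but was without MA9+EV replicate 1 (edgeR adjusted p = 0.0141) or MA9+SETDB1 replicate 1 (edgeR adjusted p = 0.0364). Tial1 (-0.66) and Celf1 (0.64) were called in opposite directions, Tial1 not without MA9+SETDB1 replicate 2 or 3 and Celf1 not without MA9+EV replicate 2 or 3. Called counts ranged from 0 to 3 higher and from 0 to 2 lower with single libraries left out.

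Relatives of Regnase-1 were lower where they were called, beside 27.4% higher and 26.2% lower over all tested genes. N4bp1, an RNA-cutting relative that restrains cytokines, had 105, 76.2 and 77.3 CPM in MA9+EV and 54.1, 35.8 and 36.6 CPM in MA9+SETDB1 (log2 change -1.03, SE 0.21, edgeR adjusted p = 0.00582). Zc3h12c, encoding Regnase-3, had 12.3, 13.0 and 10.2 CPM in MA9+EV and 6.49, 1.70 and 2.65 CPM in MA9+SETDB1 (-1.71, SE 0.48, edgeR adjusted p = 0.021). Both genes were lower in all 3 MA9+SETDB1 libraries, while the call for Zc3h12c was lost without MA9+EV replicate 1 (edgeR adjusted p = 0.0505), MA9+EV replicate 2 (edgeR adjusted p = 0.0625) or MA9+SETDB1 replicate 3 (edgeR adjusted p = 0.0745), which left 1 called gene. Of 6 genes 4 were tested, with 0 higher and 2 lower (0 and 3 at an unadjusted p under 0.05, 0 and 2 by DESeq2), and Upf1 and Nufip2, cofactors of Regnase-1 and Roquin, were not called (-0.23 and -0.40). With the replicate block Nufip2 was called lower (-0.38, edgeR adjusted p = 0.0461), as it was with upper-quartile scaling (edgeR adjusted p = 0.0388), without replicate 1 of both groups and with scaling by library size alone.

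The arm that removes Regnase-1 and Roquin after receptor signals, through MALT1 cleavage and IKK phosphorylation, was split. Of 10 tested genes 3 were called higher and 3 lower (median -0.20), and 5 lower with the replicate block. The main fit called 27.4% of all tested genes higher and 26.2% lower. Bcl10, encoding a partner of MALT1, rose by 0.84 (edgeR adjusted p = 0.00534) and Ikbkb, encoding a kinase that marks Regnase-1 for destruction, by 0.98 (SE 0.15, edgeR adjusted p = 0.00158).

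Ikbke, a related kinase gene, fell from 131, 76.4 and 77.1 CPM to 33.7, 15.5 and 16.2 CPM (log2 change -2.12, SE 0.37, edgeR adjusted p = 0.00305). Malt1 itself was not called (-0.65, edgeR adjusted p = 0.0764), and was called with the replicate block (-0.70, edgeR adjusted p = 0.0144) and without MA9+SETDB1 replicate 1 (-0.998, edgeR adjusted p = 0.00179). It was named after its values were seen. Without MA9+SETDB1 replicate 2, 1 gene of the arm was called lower.

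**Figure D4:**
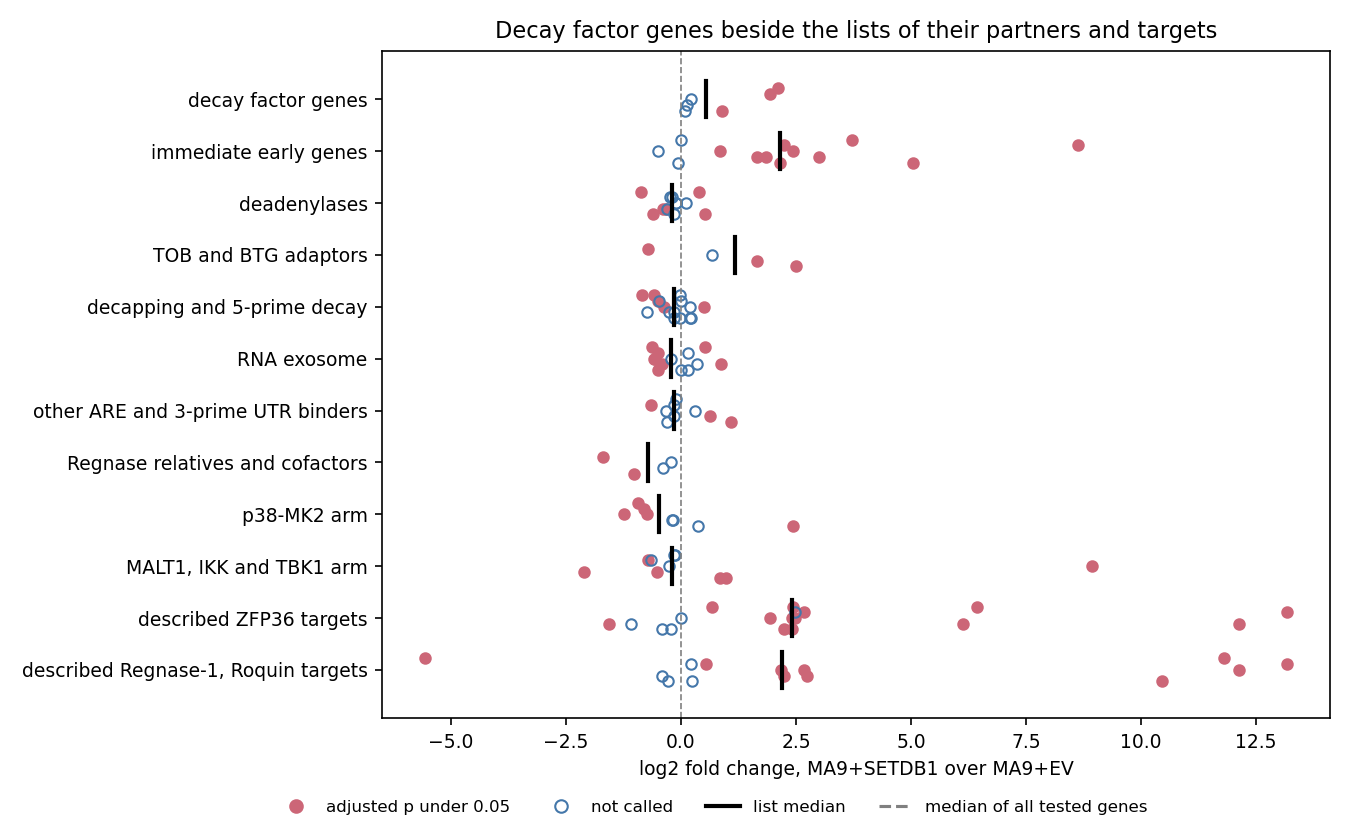
Fitted log2 fold change of each tested gene, MA9+SETDB1 over MA9+EV, for the decay factor genes and the lists of their partners and targets, with filled points for genes at an adjusted p under 0.05, a black bar at each list's median and a dashed line at the median of all tested genes. Immediate early genes and both target lists have medians above 2, and the deadenylase, decapping and exosome lists have medians near 0.

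Most of the tested transcripts described elsewhere as targets of these factors were called higher, not lower. Of 24 described ZFP36 targets 18 were tested, with 12 called higher and 1 lower (2 lower with the replicate block) and a median log2 fold change of 2.42, beside 27.4% called higher and 26.2% lower over all tested genes. Of 20 described Regnase-1 and Roquin targets 14 were tested, with 9 higher and 1 lower and a median of 2.20. The lists share 6 genes with each other (Tnf, Il1b, Il6, Cxcl1, Ptgs2 and Ier3), 25.0% of the first and 30.0% of the second, and the first holds Zfp36 and the second Zc3h12a. Some targets are early response genes: Ier3 and Dusp1 are also on the immediate early list, and Dusp1 on the p38-MK2 list. Others, such as Gata2, are lineage markers whose lists moved too. Steady-state counts do not measure mRNA half-life.

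The cytokine gene Lif had 0.248, 0.373 and 0.504 CPM in MA9+EV and 19.4, 38.9 and 38.6 CPM in MA9+SETDB1 (log2 change 6.43, SE 0.42, edgeR adjusted p = 4.73e-05). Cdkn1a, a cell cycle inhibitor, had 53.0, 126 and 112 CPM in MA9+EV and 394, 626 and 610 CPM in MA9+SETDB1 (2.49, SE 0.36, edgeR adjusted p = 0.00128). In both genes replicate 1 was the lowest library of each arm, and the arms did not overlap. The early gene Ier3 rose by 2.23 (edgeR adjusted p = 0.00211) and Il1b and Il6, inflammatory cytokine genes, by 12.1 and 13.2 on the same scale. The MA9+EV libraries together held only 19 reads of Il1b and 6 of Il6, so these folds start from near 0. In MA9+SETDB1 replicates 1, 2 and 3, Il1b had 548, 1627 and 1659 CPM and Il6 172, 1152 and 1270 CPM. Tnf, the classic tristetraprolin target, was chosen after its values were seen: it had 8.71, 10.2 and 10.0 CPM in MA9+EV and 7.55, 7.37 and 6.91 CPM in MA9+SETDB1 and was not called (-0.41, SE 0.18, edgeR adjusted p = 0.0928). All 3 MA9+SETDB1 libraries of Tnf were below the MA9+EV libraries, and it was called lower without replicate 1 of both groups (-0.49, edgeR adjusted p = 0.00191) and with scaling by library size alone (-0.64, edgeR adjusted p = 0.0274). The 1 ZFP36 target called lower was Vegfa, the endothelial growth factor gene, named after its values were seen, with 143, 235 and 245 CPM in MA9+EV and 37.3, 83.7 and 89.1 CPM in MA9+SETDB1 (-1.57, SE 0.36, edgeR adjusted p = 0.0101). Its arms did not overlap, and its call was lost with the summed replicates (edgeR adjusted p = 0.0511). Without MA9+EV replicate 1 or MA9+SETDB1 replicate 1, 2 of the ZFP36 targets were called lower.

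Nfkbiz, whose message is cut by Regnase-1, had 1.28, 1.66 and 2.07 CPM in MA9+EV and 13.9, 9.13 and 10.1 CPM in MA9+SETDB1 (log2 change 2.73, SE 0.29, edgeR adjusted p = 0.000367). Tal1 and Gata2, blood transcription factor genes, rose by 11.8 and 10.5 log2 units, from 5 and 63 reads over all MA9+EV libraries. Lcn2, a neutrophil granule protein gene, was the 1 target of this list called lower, from 133, 45.3 and 40.5 CPM to 2.63, 0.73 and 1.25 CPM (-5.56, SE 0.69, edgeR adjusted p = 0.000665). Its arms did not overlap, and the neutrophil granule markers fell with it. The part of the lineage markers in these target levels was not tested.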

How the data were processed

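The authors deposited 1 file of unnormalized read counts per library, in whole numbers for each gene. The submitters' processing notes name GRCm38 and, without role or order, STAR 2.6.0c and HTSeq 0.11.0 among others. Per the labels, libraries were strand-specific and poly-A selected. Whether counting used strand is not stated in the labels, which makes overlapping genes uncertain. Of the 26 samples of the series the 6 RNA-seq libraries were used, and the 20 chromatin samples were not analysed here. Groups came from the sample titles, 3 libraries each. Summary lines (24.6% to 26.3% of entries per library) were left out.

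Symbols were matched by versioned identifier (52480), then by stable identifier (1599), with 67 unmatched. Positions and promoter windows came from RefSeq GRCm38.p6. Genes were filtered with filterByExpr by group, scaled by TMM and compared by the quasi-likelihood F-test of edgeR 4.0.16 on group alone (with limma 3.58.1 in R 4.3.3). P-values were adjusted by Benjamini-Hochberg over all 12986 genes, with calls at 0.05. The common biological coefficient of variation between libraries was 0.244. The procedure was tested on simulated data. CPM are counts per 1e+06 of TMM-scaled library size, and log2 fold changes are MA9+SETDB1 over MA9+EV. Shares and ratios of families were tested by two-sided exact permutation over libraries. They were planned per kilobase, but no exon lengths were given, so shares of reads were used.

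The decay factor genes and all lists were chosen with earlier results of these data known. Named genes were the 6, Setdb1, up to 4 tested genes of the smallest p per list (6 in target lists) and the 2 genes most like each of the 6. Cell type markers are named where they were at 0 or were the tested ones of a short list. Any other gene is marked as picked with its values in view. Some genes that the rule took are not reported here. Both arms use replicate numbers 1 to 3, and equal numbers deviated together across genes (r = 0.271, 0.225 and 0.205). Numbers 2 and 3 correlated across the arms about as well (0.24 and 0.204). The values therefore set number 1 apart in both arms but do not show that numbers 2 and 3 pair the libraries. The main fit and the permutation tests used no pairs, and the replicate block was run as an alternative. Alternatives were other scalings, low-count filters, the replicate block, DESeq2 1.42.0, replicates 2 and 3 summed, and each library left out. Leaving out replicate 1 of both groups was added after the data were seen.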

Additional observations from a re-analysis of the deposited data

How the results depend on the processing

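Zfp36 and Zfp36l2 kept their direction and call in all 15 alternatives, and Zfp36l1 kept its direction in all 15. The replicate block, which pairs the libraries by number, changed no call of the 6 genes, and Zfp36l1 then rose by 2.34. With the block 3 Regnase relatives, 3 other UTR-binding genes, 5 genes of the MALT1 arm and 2 ZFP36 targets were called lower. Scaling by library size alone reversed Zc3h12a (-0.0238), Rc3h1 (-0.13) and Rc3h2 (-0.0849), and the call of Zfp36l1 was lost with replicates 2 and 3 summed (2.3). The alternatives below bear on the lists, and the cause of each move was not tested.

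With upper-quartile scaling 1 deadenylase gene was called higher, 2 other UTR-binding genes and 2 ZFP36 targets lower, and the p38-MK2 median was -0.543. With library size alone 0 deadenylase, decapping or other UTR-binding genes and 1 exosome gene were called higher. Called lower then were 7 deadenylase genes, 7 of the MALT1 arm, 4 other UTR-binding genes, 4 Regnase relatives, 4 ZFP36 targets and 2 Regnase-1 and Roquin targets. The medians were -0.423 for deadenylases, -0.379 for decapping, -0.457 for the exosome, -0.373 for other UTR binders, -0.713 for p38-MK2, -0.428 for the MALT1 arm and 1.96 for Regnase-1 and Roquin targets.

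With no low-count filter the medians were 1.65 (TOB and BTG), -0.405 (Regnase relatives) and 1.28 (Regnase-1 and Roquin targets), and by DESeq2 1.65, -0.404 and 0.927, both with 2 ZFP36 targets lower and with more genes tested. With replicates 2 and 3 summed, 2292 of all genes were called higher and 1928 lower. There, 0 deadenylase, decapping and other UTR-binding genes and 1 exosome gene were called higher. Called lower were 1 gene each for deadenylases, decapping, Regnase relatives and the MALT1 arm, and 0 for TOB and BTG, exosome, other UTR binders and ZFP36 targets.

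With 1 library left out in turn, Zfp36l1 ranged from 1.65 to 2.46, Rc3h1 from -0.156 to 0.241 and the Rc3h1 share difference from -3.39 to 0.772. Counts called higher ranged from 0 to 2 (deadenylases), 0 to 1 (decapping), 2 to 4 (exosome), 0 to 3 (other UTR binders) and 1 to 2 (p38-MK2). Counts called lower ranged from 1 to 5 (deadenylases), 0 to 1 (TOB and BTG), 2 to 4 (decapping), 0 to 2 (other UTR binders), 1 to 2 (Regnase relatives), 1 to 4 (MALT1 arm) and 1 to 2 (ZFP36 targets). Medians ranged from 1.69 to 2.32 (immediate early), 0.706 to 1.38 (TOB and BTG), -0.215 to -0.0584 (decapping), -0.329 to -0.0527 (exosome), -0.545 to -0.359 (p38-MK2), 2.08 to 2.59 (ZFP36 targets) and 1.95 to 2.39 (Regnase-1 and Roquin targets).

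Without replicate 1 of both groups, added after the data were seen, Zc3h12a was called higher (0.255) and 5285 of all genes lower. Then 3 decapping, 5 exosome and 2 p38-MK2 genes were called higher. Called lower were 7 deadenylase, 8 decapping, 5 other UTR-binding, 4 Regnase-relative and 6 MALT1-arm genes, 4 ZFP36 targets and 2 Regnase-1 and Roquin targets. Medians were 1.84 (immediate early), 0.772 (TOB and BTG), -0.0827 (exosome), -0.298 (p38-MK2) and 1.99 (ZFP36 targets). The remaining libraries of each arm lie close together, so the spread in that fit is small.

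Shares per length were not run, since no exon lengths were given. With 3 libraries an arm, the exact permutation test used for family shares and ratios cannot go below 0.1. Zfp36l1 had as few as 31 reads in a library.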
